A study of Homo sapiens with 12 samples.

Results

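The mitotic spindle and checkpoint genes are 54 genes whose products build the spindle, attach chromosomes to it, hold anaphase back until attachment is complete and bring the cell out of mitosis. They were taken by gene symbol from the table of 60623 genes, and each of the 54 matched 1 row. RNA was measured in A549, a human lung adenocarcinoma cell line, after infection with a lentivirus whose vector carries the EF1a promoter and a hygromycin resistance gene. V cells received the empty vector, WT cells HA-tagged AHR (the aryl hydrocarbon receptor, a ligand-activated transcription factor), SA cells HA-tagged AHR with S489A, which puts alanine in the place of a serine, and SD cells HA-tagged AHR with S489D, which puts aspartate there. All 4 lines, V included, went through selection with 200 µg/ml hygromycin for 72 h. The samples were labelled as 3 biological replicates of each line, which gave 12 libraries of poly(A)-enriched RNA. Each construct was carried by 1 selected line, so the effect of a construct cannot be told apart from whatever else sets that line apart.

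This serine is a site that the study examined for phosphorylation by PLK1, a kinase that acts in mitosis, and the comparisons here ask how the RNA of the mitotic genes differed between the lines. As background, genes of mitosis are transcribed late in the cell cycle, when the transcription factors MYBL2 and FOXM1 act with the MuvB complex at promoters that often carry a CHR element and CCAAT boxes. Their proteins then act in a fixed order. Cyclins and CDC25 phosphatases start mitosis, motors and microtubule-binding proteins build the spindle, and the checkpoint holds CDC20 back until kinetochores are attached. In proliferating cancer cells such as A549, the summed RNA of these genes is widely read as a mark of the share of cells near mitosis. In RNA from whole cultures, fewer cells near mitosis and less RNA per cell cannot be told apart.

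The total of rounded expected counts ranged from 7844045 to 11765576 per library, and genes of the mitochondrial genome took between 6.08% and 8.37% of it. AHR rose against V, with a log2 fold change ± SE of 1.95 ± 0.07 (WT), 1.69 ± 0.06 (SA) and 1.61 ± 0.06 (SD), and it was also lower in SD than in WT (log2 fold change -0.35 ± 0.06, adjusted p = 0.00774, edgeR's quasi-likelihood test). The epithelial markers KRT8 and KRT18 were present at 1901 CPM (counts scaled to the library total) or more in every library, and both were lower in the 3 AHR lines than in V. CDH1, the epithelial cadherin, was lower too, with line means of 170 (V), 112 (WT), 113 (SA) and 126 CPM (SD), while KRT7 was lower in SD but not called in WT or SA (adjusted p = 0.876 and 0.259). The other markers of the epithelial list were nearly absent, EPCAM at 0.38 to 1.74 CPM and KRT19 at 0 to 0.536 CPM. Of the markers of other cell types, those of alveolar type II and endothelial cells were at or near 0, as were the fibroblast markers DCN, LUM and PDGFRB (0 to 0.983 CPM) and the immune markers PTPRC and CD3E (0 to 0.172 CPM). COL1A1, a fibroblast collagen, was lower in WT and SA, with line means of 11.4 (V), 6.54 (WT), 7.53 (SA) and 8.02 CPM (SD). CD68, a macrophage marker, was higher in SA than in V (33.0 against 25.6 CPM). The part of these differences in the results on the mitotic genes was not tested.

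Levels are given as CPM on TMM-normalized library sizes, and each value after ± beside a mean is the standard deviation of 3 libraries. A gene was counted as changed when its adjusted p in edgeR's quasi-likelihood test was under 0.05, with Benjamini-Hochberg adjustment over all genes tested in the comparison. All 54 mitotic genes passed the filter on low counts in all 6 comparisons, and the lowest count of any of them in a library was 107. The comparisons with V use the same 3 V libraries, so an unusual V library enters all 3 of them.

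Few of the mitotic genes changed, and those that did changed little. ECT2, the exchange factor that activates RhoA for cytokinesis, fell in all 3 AHR lines, and CKAP5, a microtubule polymerase of spindle poles and plus ends, fell in SA and SD. MKI67, which encodes the surface protein of mitotic chromosomes known as Ki-67, fell in SA. CDC20, the activator of the anaphase-promoting complex, rose in WT, and CDC25B, a phosphatase that switches on CDK1 at the entry into mitosis, rose in WT and SA. The mean of the highest line was less than 1.2 times that of the lowest for 52 of the 54 genes, with a median of 1.10 and a range from 1.01 (GTSE1) to 1.31 (SGO1).

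In WT against V, 2 of the 54 genes rose (CDC20 and CDC25B), where 2.31% of all tested genes rose, and 1 fell (ECT2), where 2.93% of all tested genes fell. In SA against V, 1 rose (CDC25B) against 3.88% of all genes, and 3 fell (CKAP5, ECT2 and MKI67) against 3.29% of all genes. In SD against V, none rose at the threshold, where 2.92% of all genes did, and 2 fell (CKAP5 and ECT2), where 2.49% of all genes did. As shares of the 54, the rises came to 3.7%, 1.85% and 0% and the falls to 1.85%, 5.56% and 3.7%, a difference of at most 2 genes from the share of all genes. At an unadjusted p under 0.05, 1 of the 54 was higher in SD than in V (CDC25B) and 6 were lower. Together these were 13% of the 54, where 17.4% of all tested genes had such a p in either direction. All genes were not counted by direction at this p, so the 6 lower genes cannot be set beside a general share. At the adjusted threshold, DESeq2 also called none higher in SD.

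**Figure D1:**
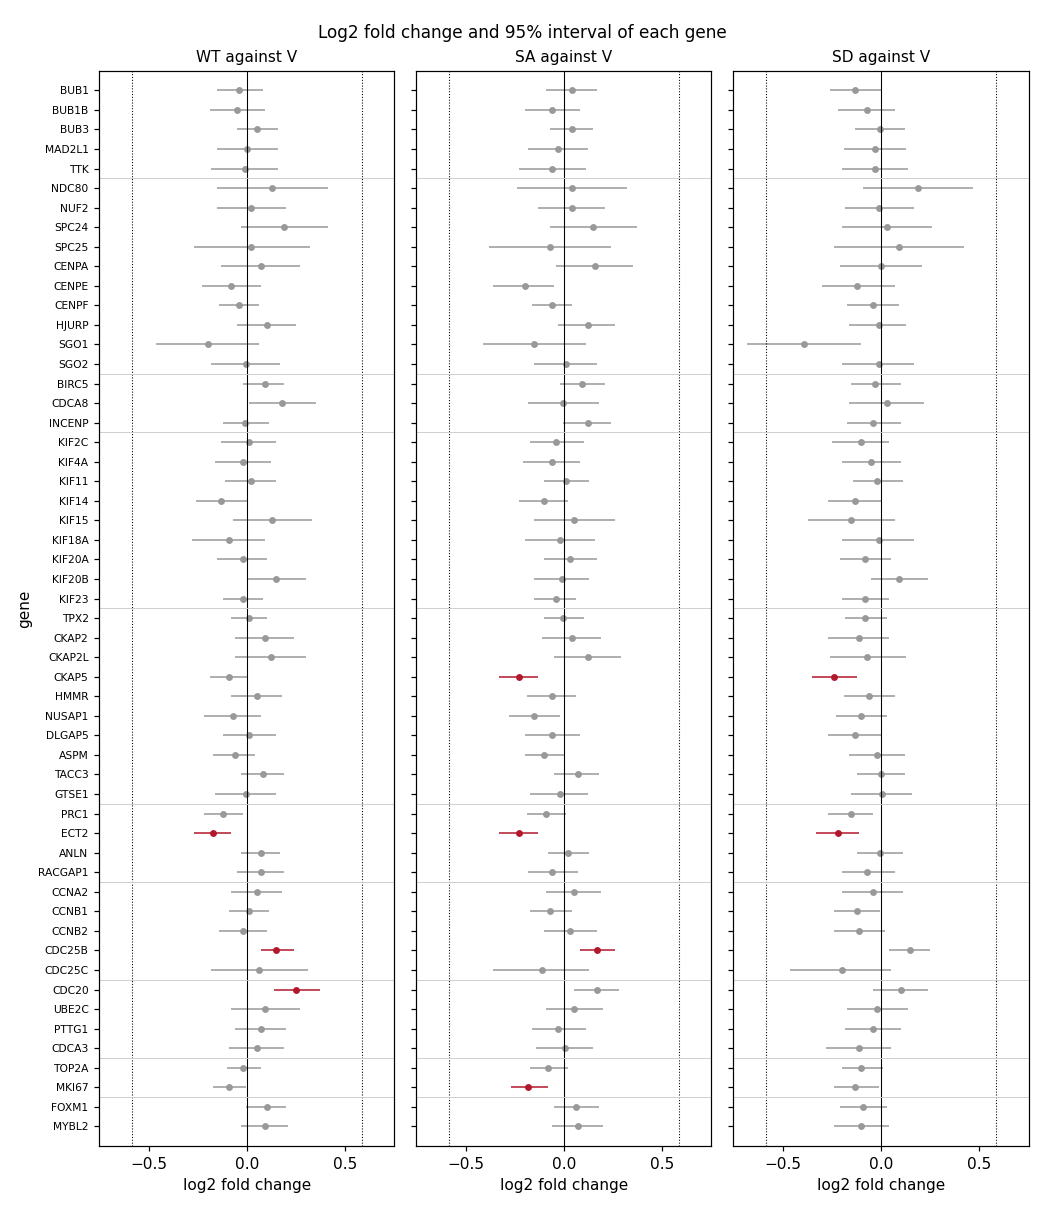
The points give the log2 fold change of each of the 54 genes against V and the lines its 95% interval, in WT (left), SA (middle) and SD (right), with genes ordered by role, changed genes in red and others in grey. Dotted lines mark 1.5-fold in either direction, and the interval of SGO1 in SD is the only one to cross them.

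The 95% interval of the log2 fold change lay within 1.5-fold in either direction (0.585 on the log2 scale) for all 54 genes in WT against V and in SA against V. In SD against V it did so for 53 of 54, and SGO1 was the exception. Taken gene by gene, these intervals bound the size of the difference between these samples even where none was called. They make no allowance for the number of genes read together. The median standard error over the 54 genes was 0.0644 in WT against V, 0.066 in SA against V and 0.0686 in SD against V.

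ECT2 (ENSG00000114346) lies on the plus strand at chr3:172750682-172821474 of GRCh38. It was measured at 290, 290 and 296 CPM in the V libraries and at 257, 275 and 246 CPM in WT. SA libraries held 236, 253 and 260 CPM and SD libraries 261, 252 and 240 CPM. Every library of the 3 AHR lines was below every V library. WT gave a log2 fold change against V of -0.17 ± 0.05 (adjusted p = 0.0228), SA one of -0.23 ± 0.05 (adjusted p = 0.00278) and SD one of -0.22 ± 0.05 (adjusted p = 0.0133). The call in SA was made also without any 1 of the 6 libraries. The call in SD was lost without any 1 of the V libraries, SD replicate 2 or SD replicate 3 (adjusted p up to 0.0683). That in WT was lost without V replicate 1, V replicate 3, WT replicate 1 or WT replicate 3 (adjusted p up to 0.17).

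CKAP5 (ENSG00000175216) lies on the minus strand at chr11:46743048-46846308. Its V libraries held 358, 332 and 373 CPM and its WT libraries 330, 346 and 320 CPM. In SA it was at 297, 309 and 304 CPM and in SD at 310, 295 and 297 CPM. The SA and SD libraries were all below the V libraries, while WT overlapped V. Log2 fold changes were -0.23 ± 0.05 in SA (adjusted p = 0.00346), -0.24 ± 0.06 in SD (0.00898) and -0.09 ± 0.05 in WT (0.3). Between SD and WT the log2 fold change was -0.15 ± 0.05, with an adjusted p of 0.272, so a difference between these 2 lines was not called. Without V replicate 1, V replicate 3 or SD replicate 2 the call in SD was lost, with an adjusted p of up to 0.0863, whereas the call in SA was made in all 6 fits that left a library out.

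MKI67 (ENSG00000148773) lies on the minus strand at chr10:128096659-128126423. V libraries held 626, 617 and 622 CPM, WT libraries 584, 603 and 571 CPM and SA libraries 567, 548 and 544 CPM. In SD the libraries were further apart, at 617, 566 and 526 CPM, a standard deviation of 45.6 against 4.61 in V. SA gave a log2 fold change of -0.18 ± 0.04 (adjusted p = 0.0136), WT one of -0.09 ± 0.04 (adjusted p = 0.24) and SD one of -0.13 ± 0.06 (adjusted p = 0.244). Without SD replicate 1, which held the highest SD value, MKI67 was called in SD with an adjusted p of 0.0139. Leaving out V replicate 1, SA replicate 2 or SA replicate 3 ended the call in SA, with an adjusted p of up to 0.0958.

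The genes that fell include long ones. The canonical transcript of MKI67 has 12716 bases and that of CKAP5 7172, against 4136 for ECT2, 3119 for CDC25B and 1649 for CDC20. Over all tested genes with a canonical transcript of 6000 bases or more, the median log2 fold change against V was -0.03 (WT), -0.04 (SA) and -0.02 (SD), and over those under 2000 bases it was 0.03, 0.03 and 0.02. The 8 mitotic genes of 6000 bases or more had medians of -0.07, -0.10 and -0.08. The 8 mitotic genes under 2000 bases had medians of 0.06 (WT), 0.04 (SA) and -0.01 (SD). For the 28 of 2000 to 4000 bases the medians were 0.03, -0.01 and -0.08, and for the 10 of 4000 to 6000 bases -0.0016, 0.01 and -0.04. The medians of the members thus fell steadily with length in WT, and not steadily in SA or SD. The part of length in the values of MKI67 and CKAP5 was not tested.

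CDC20 (ENSG00000117399) lies on the plus strand at chr1:43358981-43363203. It was at 134, 148 and 134 CPM in V and at 177, 165 and 155 CPM in WT. SA libraries held 150, 158 and 160 CPM, and SD libraries 144, 133 and 167 CPM. WT and SA did not overlap V, while SD did. WT gave a log2 fold change of 0.25 ± 0.06 (adjusted p = 0.005), SA one of 0.17 ± 0.06 (adjusted p = 0.07) and SD one of 0.10 ± 0.07 (adjusted p = 0.521). SD against WT gave -0.16 ± 0.07 with an adjusted p of 0.412, so SD and WT were not called different. The call in WT was lost without V replicate 1 or WT replicate 1, with an adjusted p of up to 0.0591.

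CDC25B (ENSG00000101224) lies on the plus strand at chr20:3786772-3806121. V libraries held 473, 482 and 498 CPM and WT libraries 530, 541 and 547 CPM. SA was at 534, 557 and 551 CPM and SD at 519, 530 and 562 CPM. Each of the 9 libraries with AHR was above all 3 V libraries. WT gave a log2 fold change of 0.15 ± 0.04 (adjusted p = 0.0219), SA one of 0.17 ± 0.05 (adjusted p = 0.0184) and SD one of 0.15 ± 0.05 (adjusted p = 0.102). The call in WT was lost without V replicate 1, V replicate 2 or WT replicate 3 (adjusted p up to 0.131). Leaving out replicate 2 or 3 of SA, or V replicate 1 or 2, ended that in SA, with an adjusted p of up to 0.133.

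**Figure D2:**
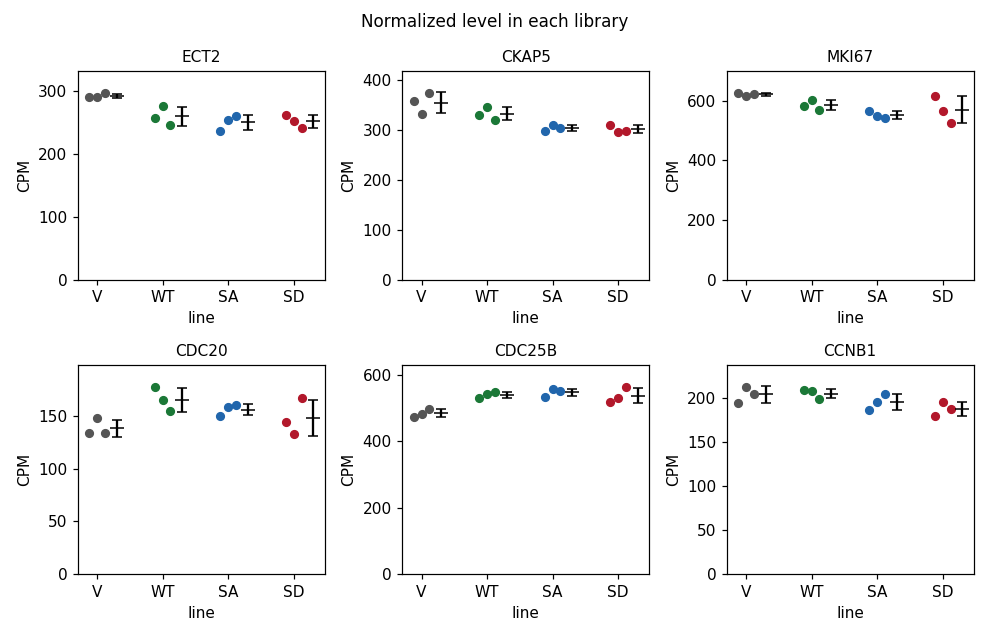
Each panel gives the CPM of 1 gene (vertical axis from 0) in the 3 libraries of V, WT, SA and SD as points, with the mean and standard deviation beside them. ECT2 is lower in every AHR library than in V, CDC25B is higher in every one, and CCNB1 overlaps V in each AHR line.

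The promoters of these 5 genes are shown because they carry the elements known for mitotic genes and, in all but CDC25B, the core of the AHR site, and that of CCNB1 is shown beside them as a mitotic cyclin that was not called. RefSeq start-site windows (250 bases before the start to 50 after it, GRCh38.p14) were found for 47 of the 54 genes, and not for BIRC5, BUB3, FOXM1, RACGAP1, TPX2, TTK and UBE2C. Capitals mark the CHR letters TTTGAA or TTCGAA, the CCAAT box CCAAT and the xenobiotic response element core GCGTG, to which AHR binds with ARNT, each on either strand. Every stretch is read 5′ to 3′ on the strand of the gene, begins 120 bases before the start and holds no annotated exon base. The windows reach further than the stretches, and that of CCNB1 holds a GCGTG core outside the stretch shown.
CDC20, chr1:43358861-43358980, plus strand: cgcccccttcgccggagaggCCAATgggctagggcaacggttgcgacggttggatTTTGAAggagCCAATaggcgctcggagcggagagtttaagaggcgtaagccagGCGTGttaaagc
CDC25B, chr20:3796190-3796290, plus strand: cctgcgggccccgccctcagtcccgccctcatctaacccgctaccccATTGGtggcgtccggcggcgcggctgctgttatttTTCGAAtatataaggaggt
ECT2, chr3:172750606-172750681, plus strand: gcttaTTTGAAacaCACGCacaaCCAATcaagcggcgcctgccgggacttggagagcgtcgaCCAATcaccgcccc
CKAP5, chr11:46846309-46846400, minus strand: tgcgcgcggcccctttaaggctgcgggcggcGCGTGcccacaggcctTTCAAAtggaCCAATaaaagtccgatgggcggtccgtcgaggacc
MKI67, chr10:128126424-128126543, minus strand: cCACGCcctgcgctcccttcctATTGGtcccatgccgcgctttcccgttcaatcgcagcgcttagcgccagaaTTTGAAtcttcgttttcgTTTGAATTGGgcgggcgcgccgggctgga
CCNB1, chr5:69167030-69167134, plus strand: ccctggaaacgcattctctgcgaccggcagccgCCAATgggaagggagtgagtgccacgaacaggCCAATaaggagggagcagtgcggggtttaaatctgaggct
For CDC25B the third of its 4 windows is shown, which belongs to a start site inside the gene, and for ECT2 the first of 2. In MKI67 the second CHR and a CCAAT box overlap.

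In CDC20 the CHR letters began 65 bases before the start, between CCAAT boxes 100 and 55 bases before it, with a GCGTG 12 bases before it. ECT2 carried its CHR 115 bases and its CCAAT boxes 97 and 58 bases before the start. CDC25B, ECT2 and CKAP5 thus hold a CHR and a CCAAT box, as CDC20 and MKI67 do, whether they rose or fell. Of the 47 genes with a window, 36 (76.6%) held the CHR letters, against 19.5% of all genes with such windows. CCAAT was found in 37 (78.7%), against 39.7% of all genes, and both together in 31 (66%), against 7.85%. The GCGTG core was found in 28 (59.6%), against 40.6% of all genes. These are matches of letters and not tested binding sites.

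The mitotic genes with and without a GCGTG differed little in their levels between lines. The median log2 fold change against V of the 28 genes with it was 0.02 (WT), -0.01 (SA) and -0.07 (SD). For the 19 genes without it, the medians were -0.0066, -0.02 and -0.05. These medians are given without a test.

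Compared per length, TOP2A, the topoisomerase that untangles chromosomes, had the highest level in V at 165 CPM per kb of canonical transcript, followed by CDC25B at 155 and CCNB1 at 100. KIF15, a motor that helps keep spindle poles apart, had the lowest at 5.55 CPM per kb, and the median of the 54 genes was 28. Summed over the 54 genes, the V libraries held 7301, 7303 and 7450 CPM and the WT libraries 7236, 7659 and 7216. SA libraries held 7020, 7362 and 7243 CPM and SD libraries 7064, 7124 and 6876. The summed level of SD was below every library of V and of WT and overlapped SA, and it amounted to between 0.688% and 0.712% of all CPM in SD.

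**Figure D3:**
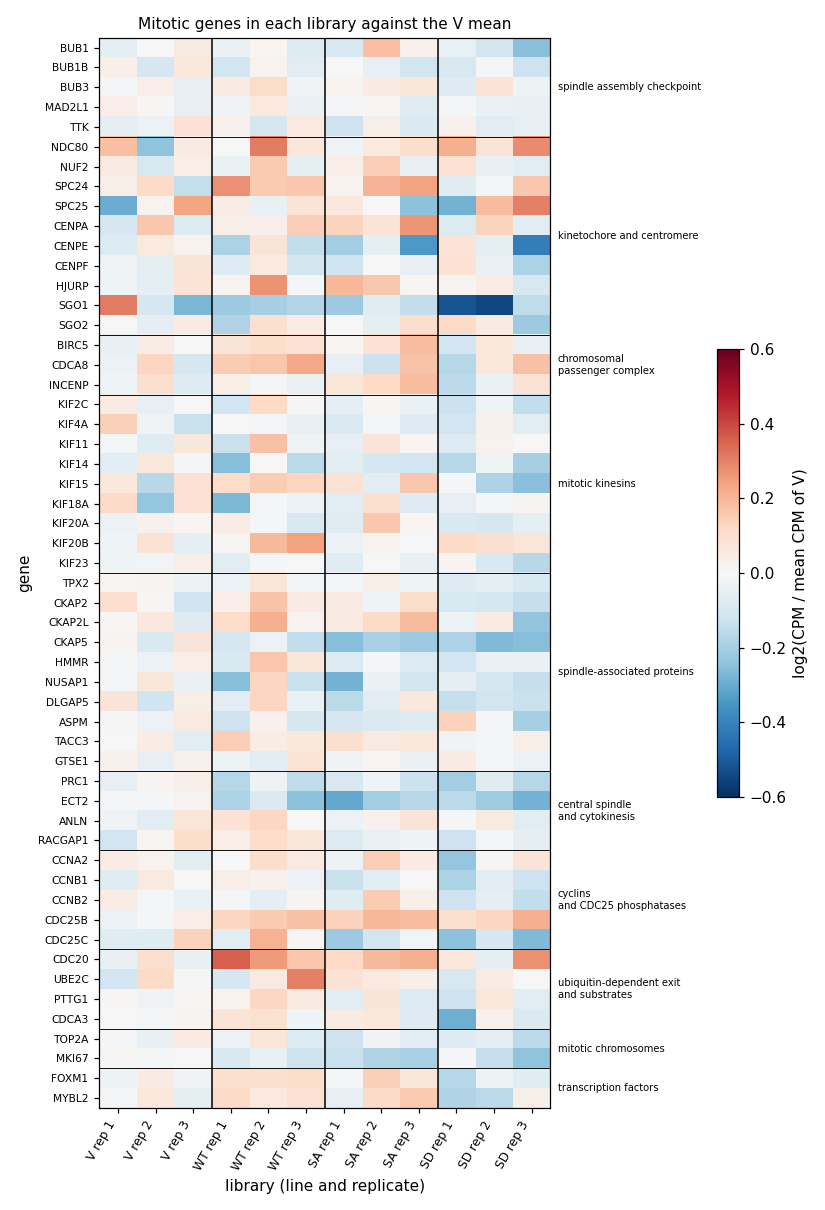
Colours give the log2 ratio of the CPM of each of the 54 genes (rows, grouped by role) in each of the 12 libraries (columns) to its mean in V. ECT2 and CKAP5 are blue across SA and SD, and CDC25B is red across the AHR lines. Because each row is scaled to its own mean in V, the V libraries lie on both sides of that mean in every row.

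The genes of the spindle assembly checkpoint, which blocks anaphase while kinetochores are unattached, did not change in any comparison. BUB1, the kinase that recruits other checkpoint proteins to kinetochores, was at 102, 106 and 110 CPM in V, at 103, 107 and 100 in WT, at 99.4, 120 and 108 in SA and at 103, 98.1 and 89.2 in SD. BUB1B, which encodes the BubR1 subunit of the mitotic checkpoint complex, was at 78.7, 71.8 and 80.4 CPM in V, at 71.2, 78.1 and 73.4 in WT, at 77.1, 74.3 and 71.2 in SA and at 72, 76.6 and 70.7 in SD. Libraries of the 4 lines overlapped for both genes. MAD2L1, which binds and holds back CDC20, was at 48, 47 and 45.2 CPM in V, at 46, 48.7 and 45.5 in WT, at 46.5, 46.9 and 44.4 in SA and at 46.5, 45.5 and 45.3 in SD. TTK, the kinase at the top of the checkpoint, was at 38.1, 38.5 and 42 CPM in V, at 40.2, 36.8 and 41.2 in WT, at 36.3, 40.5 and 37.2 in SA and at 40.2, 37.7 and 38.2 in SD. Their line means stood within 1.02 times of each other for MAD2L1 and 1.04 times for TTK. The list of 5 also holds BUB3, the adaptor that carries BUB1 and BubR1 to kinetochores, whose largest ratio of line means was likewise 1.04.

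Among the 10 genes of kinetochores and centromeres, none changed in any comparison. NDC80, the main microtubule anchor of the kinetochore, was at 16.2, 12.1 and 14.8 CPM in V, at 14.3, 17.7 and 15 in WT, at 14.1, 14.9 and 15.4 in SA and at 16.6, 15.1 and 17.4 in SD. CENPA, the histone H3 variant that marks centromeres, was at 26.8, 32.1 and 27.1 CPM in V, at 29.4, 29.3 and 31.8 in WT, at 31.5, 30.3 and 34.5 in SA and at 27.1, 31.5 and 27.4 in SD. Both genes overlapped between V and every AHR line. CENPA shares its region on the same strand with SLC35F6. Its counts were whole numbers in every library, so they give no sign of reads shared out with another gene. The part of the overlap in its value was not tested. CENPE, the kinesin that carries chromosomes to the spindle equator, was at 67.4, 74.2 and 72.3 CPM in V, at 62.5, 75.2 and 64.4 in WT, at 61.8, 68.7 and 56.1 in SA and at 75.4, 68.6 and 53.5 in SD, and its libraries within each AHR line lay further apart than the means of the lines. The other genes of this group (NUF2, SPC24, SPC25, CENPF, HJURP and SGO2) had log2 fold changes against V between -0.07 and 0.19. SGO1, the protector of centromeric cohesion, is named after its values were seen, as the gene with the largest ratio between lines. It was at 27.1, 20.4 and 18.1 CPM in V and at 15.3, 15 and 19.7 in SD, which overlap, and its log2 fold change of -0.39 ± 0.14 had an adjusted p of 0.115.

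The chromosomal passenger complex corrects faulty attachments and then guides cytokinesis, and none of its 3 genes in the list changed in any comparison. BIRC5, which encodes survivin, was at 127, 135 and 131 CPM in V, at 138, 141 and 139 in WT, at 132, 139 and 149 in SA and at 121, 137 and 127 in SD. WT was above V in each library, by a log2 fold change of 0.09 ± 0.05 with an adjusted p of 0.386. CDCA8, which encodes borealin, had means of 41.5 ± 3.47 CPM in V and 47.1 ± 1.32 in WT (adjusted p = 0.242). INCENP, the scaffold of the complex, had its highest mean in SA, at 127 ± 4.99 CPM against 116 ± 7.30 in V (adjusted p = 0.273).

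Of the 9 mitotic kinesins, motors that slide, cross-link or take apart microtubules, none changed in any comparison. KIF11, the motor that pushes spindle poles apart, was at 123, 118 and 130 CPM in V, at 113, 140 and 122 in WT, at 120, 131 and 125 in SA and at 117, 126 and 124 in SD. KIF20A, a motor of the central spindle, was at 86.7, 90.4 and 89.6 CPM in V, at 91.7, 88.2 and 83.1 in WT, at 84.5, 99.6 and 89.5 in SA and at 83.4, 82.5 and 85.7 in SD. KIF11 overlapped in every pair of lines, whereas the SD libraries of KIF20A were below those of V by a log2 fold change of -0.08 ± 0.06 (adjusted p = 0.553). KIF20A overlaps BRD8 and CDC23 on the other strand, and the strand used in counting is not given in the sources used here. Its counts were whole numbers in every library, and the part of the overlap in its value was not tested. The other kinesins (KIF2C, KIF4A, KIF14, KIF15, KIF18A, KIF20B and KIF23) had log2 fold changes against V between -0.15 (KIF15 in SD) and 0.15 (KIF20B in WT). In SD against V, 8 of the 9 kinesins had a log2 fold change below 0, with a median of -0.08.

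TPX2, which activates AURKA and nucleates spindle microtubules, was at 246, 247 and 239 CPM in V, at 238, 257 and 241 in WT, at 243, 250 and 240 in SA and at 231, 234 and 229 in SD. Its SD libraries were below all 9 others, yet the log2 fold change against V was -0.08 ± 0.05 with an adjusted p of 0.506. PRC1, the bundler of the central spindle, was at 222, 233 and 236 CPM in V, at 204, 225 and 207 in WT, at 215, 227 and 210 in SA and at 199, 219 and 204 in SD. The log2 fold change of PRC1 in SD was -0.15 ± 0.06 (adjusted p = 0.119), and its counts were not whole numbers in 11 of 12 libraries, with an overlapping gene on the same strand, so its value is uncertain. Of the 10 spindle-associated proteins only CKAP5 was called against V, and of the 4 genes of the central spindle and cytokinesis only ECT2. CKAP2, CKAP2L, HMMR, NUSAP1, DLGAP5, ASPM, TACC3 and GTSE1, which bind or focus spindle microtubules or regulate proteins that do, had log2 fold changes against V between -0.15 (NUSAP1 in SA) and 0.12 (CKAP2L in WT and SA). RACGAP1, the partner that recruits ECT2 to the central spindle, had means of 105 ± 7.94 (V), 111 ± 2.42 (WT), 101 ± 1.94 (SA) and 100 ± 3.86 CPM (SD). ANLN, which links RhoA to the contractile ring, had means of 214 ± 10.6 (V), 225 ± 9.28 (WT), 218 ± 8.79 (SA) and 213 ± 8.68 CPM (SD). The adjusted p of both genes against V was at least 0.493, so the fall of ECT2 was not matched by a called change of these genes.

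CCNB1, the cyclin that forms the main mitotic kinase with CDK1, was at 194, 212 and 204 CPM in V, at 209, 208 and 199 in WT, at 186, 195 and 204 in SA and at 179, 195 and 187 in SD. The SD libraries were below those of WT and overlapped V, with a log2 fold change against V of -0.12 ± 0.06 (adjusted p = 0.26). CCNA2 and CCNB2, the other cyclins of the list, had log2 fold changes between -0.11 and 0.05 against V. CDC25C, a phosphatase of CDK1 like CDC25B, had means of 17.8 ± 1.58 (V), 18.5 ± 1.88 (WT), 16.5 ± 1.17 (SA) and 15.5 ± 0.992 CPM (SD), and it was not called against V. FAM53C overlaps CDC25C on the other strand at more than its count. The counts of CDC25C were whole numbers in every library, and the part of the overlap in its value was not tested.

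PTTG1, which encodes securin, the inhibitor of separase that CDC20 marks for destruction, was at 71.1, 69.6 and 71.3 CPM in V, at 71.8, 77 and 73.5 in WT, at 67.5, 74.7 and 66.8 in SA and at 64.8, 73.9 and 67.7 in SD. UBE2C, the ubiquitin-conjugating enzyme of the anaphase-promoting complex, had means of 65.3 ± 5.26 (V), 69.6 ± 9.97 (WT), 68.1 ± 1.28 (SA) and 64.6 ± 3.27 CPM (SD). CDCA3, an adaptor for the destruction of mitotic inhibitors, had log2 fold changes against V between -0.11 and 0.05. None of these was called, and of the 4 genes of mitotic exit only CDC20 was called. TOP2A was at 931, 909 and 971 CPM in V, at 914, 985 and 884 in WT, at 860, 922 and 898 in SA and at 888, 903 and 840 in SD. SD was below V in each library by a log2 fold change of -0.10 ± 0.05 with an adjusted p of 0.364.

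FOXM1 and MYBL2, the transcription factors of the list, were not called in any comparison. FOXM1 was at 139, 147 and 140 CPM in V, at 152, 152 and 153 in WT, at 141, 157 and 149 in SA and at 126, 139 and 135 in SD. MYBL2 was at 92.8, 97.5 and 89.7 CPM in V, at 101, 97.3 and 99.5 in WT, at 90.2, 101 and 104 in SA and at 82.2, 83.4 and 95.6 in SD. For both genes, no SD library reached a WT library. In SD against WT the log2 fold change was -0.19 ± 0.06 for FOXM1 (adjusted p = 0.134) and -0.19 ± 0.07 for MYBL2 (adjusted p = 0.263), and neither passed the threshold. Under the other settings the adjusted p of FOXM1 ranged from 0.0566 to 0.149, and with 1 library left out from 0.149 to 0.39. By gene coordinates, FOXM1 overlaps RHNO1 and ITFG2 on the other strand, at 28.8% and 25.6% of its mean count. Its counts were whole numbers in every library, so they give no sign of reads shared out with another gene. The part of the overlap in its value was not tested.

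None of the 54 genes was called between SD and WT, where 0.708% of all genes were, between SD and SA, where 0.220% were, or between WT and SA, where 0.0803% were. DESeq2 also called none of them in these comparisons. In SD against WT, 11 of the 54 genes had an unadjusted p under 0.05, and all 11 were lower in SD, where 4.82% of all genes were lower and 5.83% higher at that p. After FOXM1, the smallest p-values were those of CKAP2 (log2 fold change -0.21 ± 0.07), MYBL2, CKAP5, KIF15 (-0.28 ± 0.10) and CCNB1 (-0.13 ± 0.06). In SD against SA, 6 genes had an unadjusted p under 0.05, all lower in SD, where 4.01% of all genes were lower and 4.52% higher. In WT against SA, 4 were higher in WT, where 3.22% of all genes were, and 1 lower (INCENP), where 4.10% were.

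**Figure D4:**
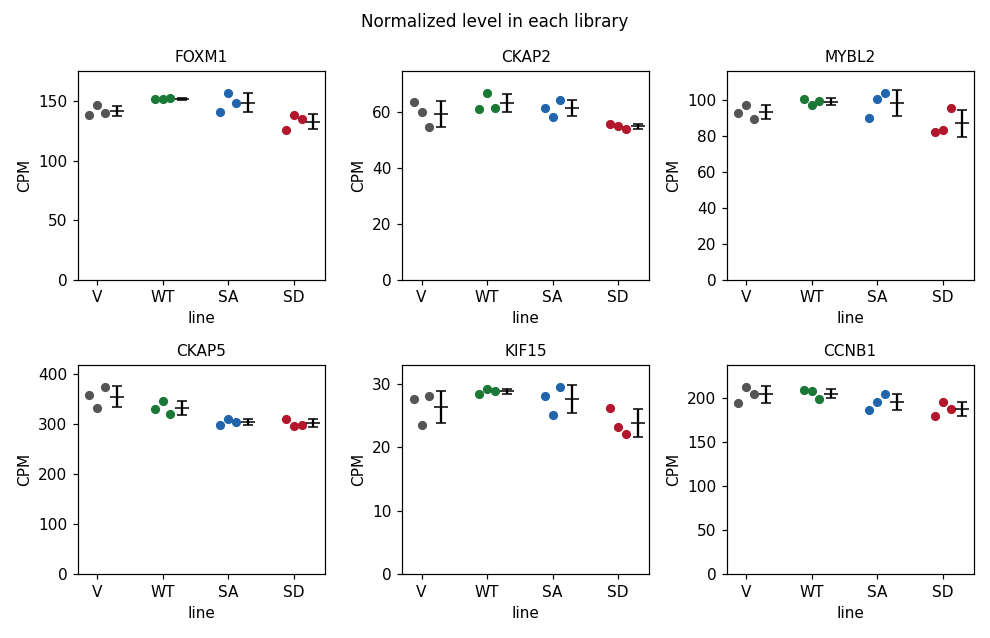
Each panel gives the CPM (vertical axis from 0) of 1 of the 6 mitotic genes with the smallest p in SD against WT, in the 3 libraries of each line as points with the mean and standard deviation. The SD points are below the WT points in all 6 panels, by log2 fold changes between -0.28 and -0.13, and no gene passed the adjusted threshold.

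By sign alone, 49 of the 54 genes (90.7%) had a log2 fold change below 0 in SD against WT, where 50.2% of all tested genes did. In SD against V the number was 45 (83.3%), where 49.2% of all genes did, and in SD against SA 40 (74.1%), where 49.8% did. The sizes were small, with medians of -0.08, -0.06 and -0.04, and medians of all genes of -0.0008, 0.0030 and 0.0007. WT and SA stood on both sides of V, with 22 and 29 of the 54 below 0. They also differed in sign from each other, since 40 of the 54 genes were higher in WT than in SA and 14 (25.9%) lower, where 50.4% of all genes were lower, with a median of 0.03. Genes of the cell cycle vary together with the state of a culture, so the 54 signs are not independent of each other, and the comparisons share libraries.

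The number below 0 varied with the libraries used. In SD against WT it was 41 without WT replicate 2 and 51 without WT replicate 1, and in SD against V it was between 38 (without SD replicate 1) and 44. In SD against SA it was between 34 (without SD replicate 3) and 44. WT replicate 2 had the highest summed level of the 54 genes and SD replicate 3 the lowest. Libraries of 13 of the 54 genes lay wholly below WT in SD, where 7.49% of all genes did, and 11 lay wholly below V, where 10.4% of all genes did. SD had the lowest mean of the 4 lines for 33 of the 54 genes and the highest for 3, and WT had the highest for 22. The order of the lines was not counted over all genes, so these 3 counts cannot be set beside a general share.

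**Figure D5:**
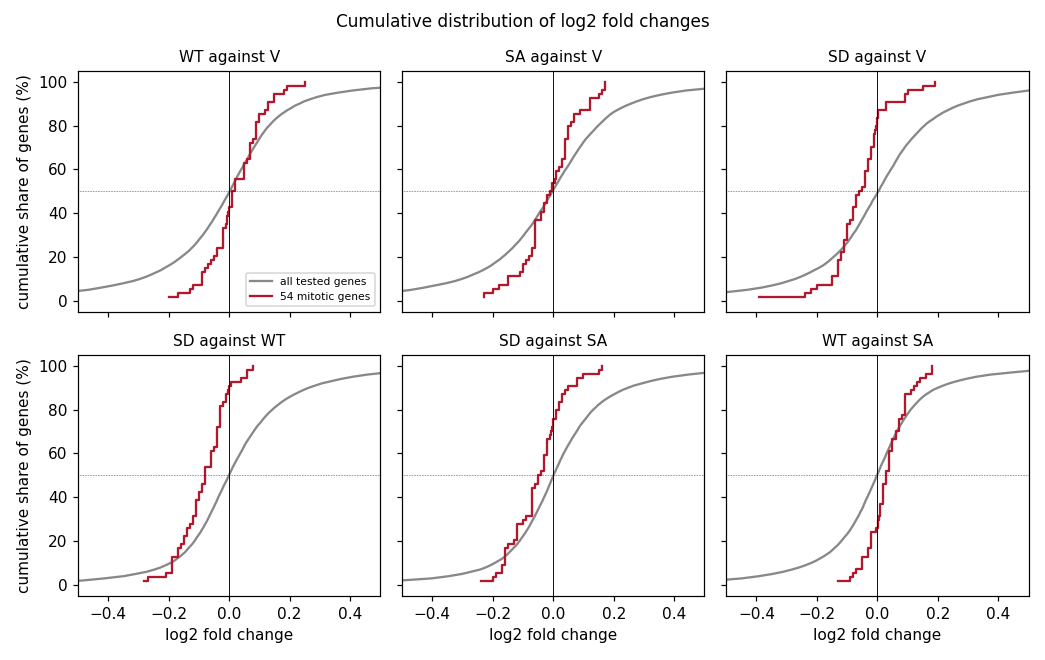
Each panel gives the cumulative share of genes (vertical axis, percent) up to each log2 fold change (horizontal axis) for all tested genes in grey and the 54 mitotic genes in red. The red curve lies left of the grey one in SD against WT, where its median is -0.08, and close to it in SA against V, where its median is -0.0081.

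The other genes of the pathways were read from 7 lists of 151 genes, of which 149 were tested in each comparison. In SD against WT, 2 of the 149 fell and none rose, where 0.708% of all tested genes were called in either direction. AURKB, the kinase of the chromosomal passenger complex, was at 91.4, 90.1 and 85.7 CPM in WT and at 69.5, 70.3 and 73.1 in SD (log2 fold change -0.33 ± 0.06, adjusted p = 0.0122). CEP55, which recruits the machinery of abscission, was at 101, 108 and 103 CPM in WT and at 86.3, 84.7 and 89.4 in SD (-0.26 ± 0.06, adjusted p = 0.0404). In both genes every SD library was below every WT library. Of the 149 genes, 110 had a log2 fold change below 0 in SD against WT, with a median of -0.08, the same median as the 54 genes. Neither edgeR nor DESeq2 called any of the 149 in SD against SA or in WT against SA. In these comparisons 11 and 13 of the 149 had an unadjusted p under 0.05 in edgeR's test, where 8.52% and 7.31% of all tested genes did.

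Against V, 3 of the 149 rose and 2 fell in WT, 3 rose and 4 fell in SA, and 1 rose and 1 fell in SD. In each line and direction this was a smaller share of the 149 than the share of all tested genes, which was 2.31% and 2.93% in WT, 3.88% and 3.29% in SA and 2.92% and 2.49% in SD. CCND3, a cyclin of the G1 phase, fell in all 3 lines, from 251, 274 and 258 CPM in V to 196, 191 and 181 in WT, 188, 205 and 198 in SA and 171, 174 and 209 in SD. Its partner CDK4 rose in WT (0.27 ± 0.05, adjusted p = 0.00241) and SA (0.23 ± 0.06, 0.0204), and CDKN1A, which encodes the CDK inhibitor p21, fell in WT (-0.34 ± 0.06, adjusted p = 2.17e-04). NUMA1, which focuses microtubules at spindle poles, rose in SA (0.16 ± 0.05, adjusted p = 0.0451) and SD (0.19 ± 0.06, 0.0496). KNTC1, a kinetochore subunit of the complex that recruits dynein, fell in SA (-0.22 ± 0.06, adjusted p = 0.0225), as did SMC2, a core subunit of condensin (-0.21 ± 0.06, 0.0304), and ESCO2, which acetylates cohesin (-0.33 ± 0.09, 0.0261). FZR1, the activator of the anaphase-promoting complex that takes over from CDC20 late in mitosis, rose in SA (0.29 ± 0.08, adjusted p = 0.0364). In WT, RRM2, a subunit of ribonucleotide reductase (0.22 ± 0.06, 0.0176), and PKMYT1, a kinase that holds CDK1 inactive (0.25 ± 0.07, 0.0367), rose as well, RRM2 being named after its values were seen.

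PLK1 and AURKA, named after their values were seen, are mitotic kinases outside the list of 54. PLK1, the kinase that the study placed upstream of AHR, was at 174, 177 and 180 CPM in V, at 181, 175 and 178 in WT, at 186, 190 and 181 in SA and at 154, 166 and 157 in SD. The SD libraries were below all 9 others, with a log2 fold change against V of -0.16 ± 0.06 that did not pass the threshold (adjusted p = 0.108). AURKA, the spindle-pole kinase that TPX2 activates, overlapped between SD and V (adjusted p = 0.776).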

How the data were processed

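The authors trimmed reads with Trimmomatic 0.39 and used RSEM on GRCh38. They deposited expected counts per gene and library, without normalization, in which a read that matches more than 1 gene is shared out. A table of the authors' own edgeR comparisons (log2 fold changes, p-values and q-values) was not used. Here the expected counts were rounded, and each pair of lines was analysed on its own 6 libraries with edgeR 4.0.16 in R 4.3.3, with filterByExpr (minimum count 10, minimum total 15), TMM normalization, the two-sided quasi-likelihood test and Benjamini-Hochberg adjustment over all tested genes. The script was tested on simulated data.

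The 54 genes, the other lists and the alternatives were chosen with earlier results of these data known. Values in every library are given for members with an adjusted p under 0.05 and for 19 members fixed by name (BUB1, BUB1B, MAD2L1, TTK, NDC80, CENPA, CENPE, KIF11, KIF20A, CCNB1, CDC20, TOP2A, MKI67, TPX2, PRC1, BIRC5, PTTG1, FOXM1 and MYBL2), and up to 3 called genes per other list are named. Transcript lengths and exon positions come from GENCODE 44, and overlaps from the gene coordinates given with the counts. Alternatives were other filters, DESeq2 size factors, DESeq2 1.42.0, a fit of all 12 libraries, a replicate block, and each library left out in turn. Same-numbered libraries of 2 lines had correlations of their deviations between -0.0376 and 0.106, not above 0.1 in every pair of any comparison, so the numbers were not taken to pair the samples. Counts of 7844045 to 11765576 per library limit precision, and no molecular identifiers are described. Nothing says whether the replicates came from separate cultures, so p-values measure the spread between these samples.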

Additional observations from a re-analysis of the deposited data

How the results depend on the processing

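The number of mitotic genes called against V rested on few libraries. Leaving out each library in turn gave between 0 and 3 in WT (3 with all), between 2 and 5 in SA (4 with all) and between 0 and 4 in SD (2 with all). It was 0 in WT without V replicate 1 and 1 without WT replicate 1 or WT replicate 3, 2 in SA without V replicate 1 or SA replicate 3, and, in SD, 0 without V replicate 1, V replicate 3 or SD replicate 2, 1 without V replicate 2 and 4 without SD replicate 1. In WT against V, only CDC20 was called when all 12 libraries were fitted together (1 gene) and with the replicate block (1 gene). The replicate block gave 5 in SA and 2 in SD, and over all genes it changed the number called from 774 to 507 in WT, from 105 to 245 in SD against WT, from 33 to 165 in SD against SA and from 12 to 25 in WT against SA. In these 3 comparisons between AHR lines, all 6 libraries correlated best with that of their own number (same-number correlations 0.0169 to 0.0551), a hint from the data and not from the design, whereas against V this held for 0, 4 and 0 of 6 in WT, SA and SD. Other filters, DESeq2 size factors and DESeq2 gave counts within 1.5 times those with V, and 0 members between the AHR lines under every alternative run. Testing every gene with at least 1 count added SGO1 in SD. No log2 fold change of the called genes changed sign. The cause of these differences was not tested. Fits without 1 library have fewer samples.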
